A study of Homo sapiens and Mus musculus with 9 samples.

Results

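The 8 genes described here encode molecular chaperones, proteins that help others to fold. HSPB1, HSPA8, HSP90AA1 and HSP90AB1 act in the cytosol, and HSPA5, HSP90B1, CALR and P4HB act in the lumen of the endoplasmic reticulum (ER). Their peaks were all those in the 3 human peak lists whose summit lay within the gene's span in the GRCh38.p14 RefSeq gene table. The rule found 22 peaks among 3706, 8 in cytosolic and 14 in ER members.

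The peaks come from enhanced UV crosslinking and immunoprecipitation (eCLIP), which sequences RNA fragments crosslinked to a precipitated protein, here the pregnane X receptor (PXR, gene NR1I2). Of the 9 samples, 6 are human. Wild-type LS174T colorectal adenocarcinoma cells gave an input with no antibody and an immunoprecipitate (IP) with an antibody to PXR, and PXR knockout LS174T cells gave an IP with the same antibody. HepG2 hepatocellular carcinoma cells gave 1 input and 2 IPs with an antibody to the HA tag. No drug treatment is named for any of them, no tagged construct is described for HepG2, and whether the knockout line is a clone is not stated. The remaining samples, 1 input and 2 PXR IPs from liver of humanized PXR mice, gave a mouse list that is not used here.

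The 3 human lists are called HepG2, WT-named and KO-named. The HepG2 list belongs to the series as a whole and has no values per library, and whether it pools both IPs is not stated. The record ties 1 LS174T list to the wild-type input and the other to the wild-type IP, whereas their names and peak names read wild-type IP and knockout IP. Which list is which genotype, or whether either is an input, is therefore not settled, and no direction is drawn from it. The lists held 1557, 2103 and 46 peaks in that order. Reads at each summit were worked out from the deposited fold and −log10 p, and the median over peaks in protein-coding genes was 10.0, 11.0 and 18.0. Of 4 hepatocyte genes (ALB, AFP, APOA1 and TTR) none had a peak in the list labelled HepG2. Of 4 colon genes (CDH17, CEACAM5, TFF3 and VIL1) that list held a peak in CDH17 and the WT-named list in CEACAM5 and TFF3. NR1I2 had a peak in none of the 3 lists. Each list is without replicate, so no difference between lists was tested, and intervals are 95% exact intervals for counting error only. PCR copies among the reads would make them too narrow.

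Cytosolic chaperones of the HSP70 and HSP90 families use ATP to fold and activate client proteins, nuclear receptors among them, and small heat shock proteins hold unfolding proteins until others refold them. In the ER, BiP (HSPA5), GRP94 (HSP90B1) and the lectin calreticulin (CALR) fold secreted proteins, and protein disulfide isomerase (P4HB) forms their disulfide bonds. Heat shock factor drives the cytosolic set through heat shock elements, and the unfolded protein response drives the ER set through ER stress elements.

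The promoter sequences below are shown because these elements separate most of the members by compartment. They are from the RefSeq promoter table for GRCh38.p14, which holds 250 bases before to 50 after each annotated start, and all 8 members matched. The windows were searched on both strands for the ER stress element, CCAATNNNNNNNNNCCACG. It was present in HSPA5, HSP90B1 and CALR, in none of the windows of P4HB or of the cytosolic members, and in 27 of 35116 promoter windows (0.0769%). Each line below reads 5′ to 3′ on the strand of the gene, with the element in capitals (where it lies on the opposite strand, its reverse complement).
HSPA5, chr9:125241385-125241414, minus strand: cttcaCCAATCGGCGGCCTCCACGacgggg
HSP90B1, chr12:103930211-103930240, plus strand: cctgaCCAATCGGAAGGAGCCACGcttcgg
HSP90B1, chr12:103930316-103930345, plus strand: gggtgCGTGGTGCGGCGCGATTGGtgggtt
CALR, chr19:12938379-12938408, plus strand: ccacgCGTGGTCGACCATCATTGGtcggtg

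The heat shock element was searched as GAANNTTCNNGAA and TTCNNGAANNTTC, again on both strands. It was found in HSPA8, HSP90AA1 and HSP90AB1, not in the window of HSPB1 or of any ER member, and in 172 of 35116 windows (0.49%). In HSP90AA1 and HSP90AB1 it lay before an inner annotated start and not before the outermost. These are matches of letters and not measured binding sites. The capitals again mark the element.
HSPA8, chr11:123062345-123062374, minus strand: gcgagcttGAAAGTTCCAGAAcgctgcggt
HSPA8, chr11:123062170-123062199, minus strand: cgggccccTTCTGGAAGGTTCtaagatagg
HSP90AA1, chr14:102087111-102087140, minus strand: gagggttcTTCCGGAAGGTTCgggaggctt
HSP90AB1, chr6:44247770-44247799, plus strand: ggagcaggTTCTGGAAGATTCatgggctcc
HSP90AB1, chr6:44247823-44247852, plus strand: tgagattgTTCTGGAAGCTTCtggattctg

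All 4 ER members had peaks in both large lists, whereas the cytosolic members differed from list to list. HepG2 held a peak in 7 of the 8 genes, 3 cytosolic and 4 ER, with 10 peaks in all. The WT-named list held a peak in 6, 2 cytosolic and 4 ER, with 12 peaks in all. Over all 20037 nuclear protein-coding genes the same rule found a peak in 5.45% for HepG2 and 7.23% for the WT-named list. The members were chosen with earlier results of these data known, so their count is a description. Every one of the 22 peaks lay on the strand of its gene, and no other annotated gene covered its summit.

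The KO-named list held no peak in any member, against a peak in 22 protein-coding genes, 0.11% of them. Its peaks in such genes held 7 to 73 reads. Of the 12 WT-named member peaks 0 overlapped a KO-named peak. Of all 1825 WT-named peaks in protein-coding genes 1.26% did, and of the 285 with 22 to 56 reads, the range of the members, 2.46% did. Absence of the members is thus what nearly all WT-named sites of their depth showed.

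**Figure D1:**
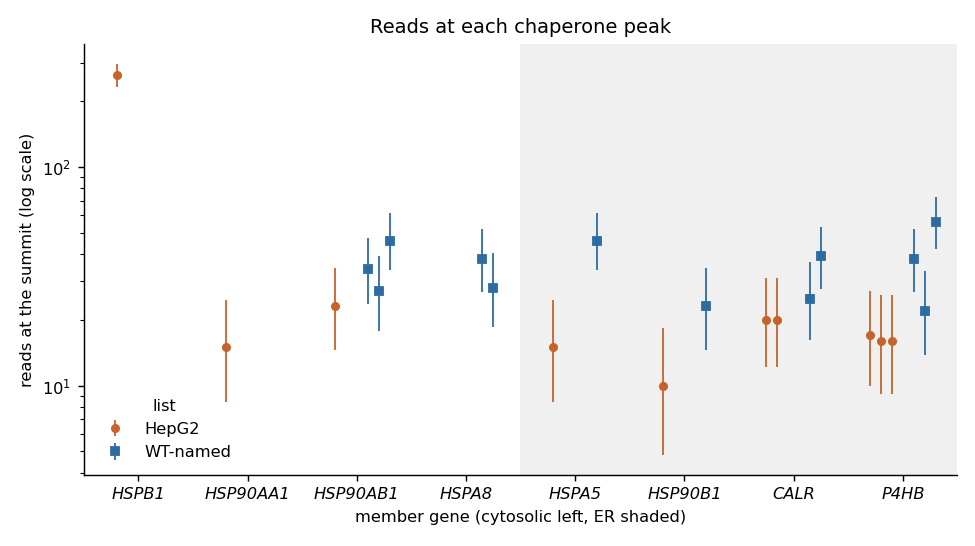
Reads at the summit of each chaperone peak, on a log axis, in the HepG2 list (circles) and the WT-named LS174T list (squares), with 95% Poisson intervals and the peaks of a gene in order from its 5′ end. HSPB1 stands alone at 263 reads in HepG2, the other HepG2 peaks lie between 10 and 23, and the WT-named peaks between 22 and 56.

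HSPB1, the small heat shock protein also known as HSP27, held by far the deepest chaperone site. The gene lies on chromosome 7 from 76302673 to 76304292 (plus strand). In HepG2 its peak spanned 76302689 to 76303210, with 263 reads at the summit (interval 232.0 to 297.0) of 548 in the surrounding 10000 bp window. It ranked 5 by reads among 1173 HepG2 peaks in protein-coding genes, and 21 by the deposited fold of 22.1. The WT-named list had no peak in this gene, and the number of reads there is not known. A further HepG2 peak of 66 reads had its summit 5 bp past the annotated end of the gene, outside the rule, and the pseudogene HSPB1P2 held 31 reads. The peak starts 16 bases after the annotated start of the RNA, and the stretch of it that the promoter table holds begins as follows, on the plus strand.
HSPB1 peak edge, chr7:76302689-76302718: acgtccagagcagagtcagccagcatgacc

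HSP90AA1 encodes the stress-inducible cytosolic HSP90 and spans chromosome 14 from 102080742 to 102139749 (minus strand), with 2 annotated starts far apart. Its only peak was in HepG2, from 102086827 to 102087026, with 15 reads at the summit (interval 8.4 to 24.7). The summit lay at 89.7% of the gene span, but only 202 bp after the inner start, the one preceded by the heat shock element printed above. The first bases of that peak, on the minus strand, were these.
HSP90AA1 peak edge, chr14:102086997-102087026: gtgtggctgtgccgttggtcctgtgcggtc

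HSP90AB1 encodes the constitutive HSP90 and spans chromosome 6 from 44246194 to 44253883 (plus strand). It was the only cytosolic member with a peak in both lists. HepG2 held 23 reads at 44253615 to 44253836 (interval 14.6 to 34.5). The WT-named list held 46 reads (interval 33.7 to 61.4) at an overlapping peak, 44253518 to 44253876. It also held 34 reads at 44252135 to 44252343 and 27 at 44253113 to 44253316, where HepG2 had no peak. All 4 summits lay within 1697 bp of the gene end, the deepest of each list being closest to it, at 156 bp for HepG2 and 197 bp for the WT-named list. The pseudogene copy HSP90AB3P held 8 reads in the WT-named list.

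HSPA8 encodes the constitutive HSP70 of the cytosol and spans chromosome 11 from 123057489 to 123062462 (minus strand). It had peaks in the WT-named list alone, 38 reads at 123059501 to 123059791 (interval 26.9 to 52.2) and 28 at 123057631 to 123057869 (interval 18.6 to 40.5). The gene hosts the small nucleolar RNAs SNORD14C, SNORD14D and SNORD14E, and neither summit lay in any of them. The pseudogene copy HSPA8P9 held 5 reads in the WT-named list. The cytosolic members thus had 3 peaks in HepG2 against 5 in the WT-named list, with 1 site in common.

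Among the ER members, HSPA5 encodes BiP, the HSP70 of the ER, on chromosome 9 from 125234853 to 125241343 (minus strand). Each list held 1 peak near its start. HepG2 had 15 reads at 125240966 to 125241185 (interval 8.4 to 24.7), and the WT-named list 46 reads at 125240854 to 125241248 (interval 33.7 to 61.4). The summits lay 291 and 252 bp after the start. The intervals of the unscaled reads did not overlap, but each list has its own depth.

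HSP90B1 encodes GRP94, the HSP90 of the ER, on chromosome 12 from 103930410 to 103947926 (plus strand). HepG2 held 10 reads at 103930490 to 103930691 (interval 4.8 to 18.4), the fewest of any member peak, and the WT-named list 23 at 103930456 to 103930681 (interval 14.6 to 34.5). The microRNA gene MIR3652 lies in the same stretch, from 103930425 to 103930555. The peaks covered 66 and 100 of its 131 bases, and both summits lay past its end, by 41 and 8 bp. Neither peak reached the bases of the mature hsa-miR-3652. The pseudogene copy HSP90B2P held 13 reads in the WT-named list.

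CALR encodes calreticulin, on chromosome 19 from 12938609 to 12944489 (plus strand), and carried a peak at each end of the gene in both lists. In HepG2 the start-side peak, 12938654 to 12938887, and the end-side peak, 12943890 to 12944377, held 20 reads each. In the WT-named list they held 25 reads (12938659 to 12938898) and 39 reads (12943855 to 12944378). The end-side peak thus took 50% of the reads of both sites in HepG2 (interval 33.8 to 66.2%) and 60.9% in the WT-named list (interval 47.9 to 72.9%), which overlap.

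P4HB encodes protein disulfide isomerase, on chromosome 17 from 81843166 to 81860535 (minus strand), and had the most peaks of the members, the same 3 in each list. In HepG2 they held 17 reads near the start (81860239 to 81860450), 16 further in (81859170 to 81859373) and 16 near the end of the gene (81843216 to 81843668). In the WT-named list the same sites held 38 reads (81860248 to 81860521), 22 (81859114 to 81859371) and 56 (81843185 to 81843704). HepG2 reads were spread almost evenly over the sites. In the WT-named list the end held 48.3% of them (interval 38.9 to 57.7%) against 32.7% in HepG2 (interval 19.9 to 47.5%), and the intervals overlap. The start-side WT-named peak began 14 bases after the annotated start, with these bases on the minus strand, of which 80% are G or C.
P4HB peak edge, chr17:81860492-81860521: cgctgtcccggcggcgccaaccgaagcgcc

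ER members carried their peaks at the same places in both lists, and cytosolic members mostly did not. All 7 ER peaks of HepG2 overlapped a WT-named peak on the same strand by at least 1 bp, and all 7 WT-named ER peaks overlapped a HepG2 peak. Of the cytosolic peaks, 1 of 3 in HepG2 and 1 of 5 in the WT-named list did. Among all 1173 HepG2 peaks in protein-coding genes 39.6% overlapped a WT-named peak, and among the 486 with 10 to 23 reads, the range of the members other than HSPB1, 46.1%. In the other direction the shares were 25.5% of all and 33.0% of those with 22 to 56 reads. Peaks of a gene are not independent, and the 7 ER sites come from 4 genes, 3 of them from P4HB. The shared ER summits were 7 to 80 bp apart, with a median of 17 bp, and those of HSP90AB1 41 bp apart. The contrast between ER and cytosolic members was not clear in other chaperone genes, described below. The cytosolic CCT4, CCT6A, FKBP4 and PTGES3 each had a site shared by both lists. So did the ER genes KDELR1, KDELR2, PDIA4, PPIB and TXNDC5, whereas CANX, ERP29 and HERPUD1 had peaks in both lists that did not overlap.

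**Figure D2:**
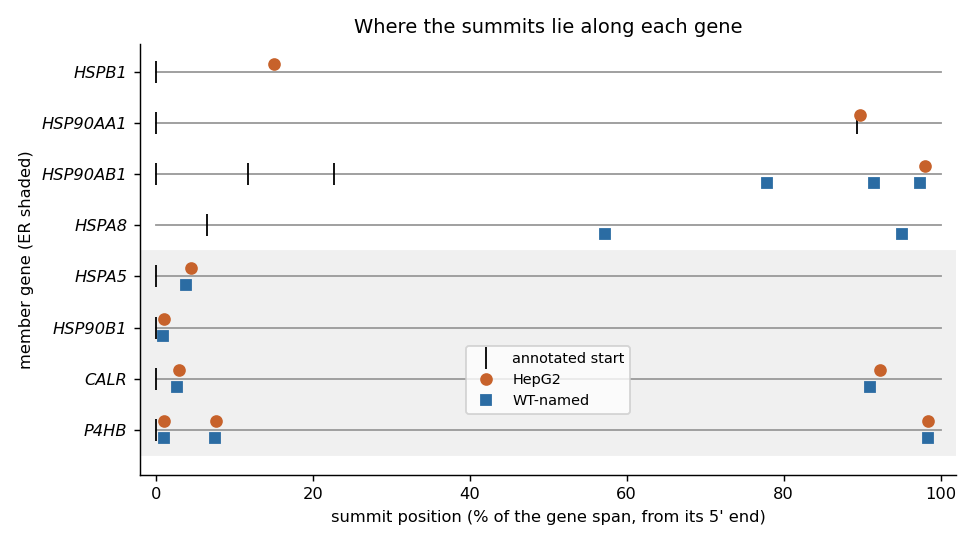
Position of each chaperone summit as a percentage of the gene span from its 5′ end, for HepG2 (circles) and the WT-named list (squares), with annotated starts as vertical ticks. The 4 ER genes (shaded) carry a peak just after the start in both lists, whereas the WT-named peaks of HSP90AB1 and HSPA8 lie from 57.3% onward.

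Along the gene, all 4 ER members carried a peak close to the start in both lists, and 2 of the 4 cytosolic members, HSPB1 and HSP90AA1, did so in HepG2. A summit up to 1000 bp after an annotated start counted as start-side and, of the rest, a summit up to 1000 bp before the gene end as end-side. In HepG2 6 of the 10 member peaks were start-side and 3 end-side, and in the WT-named list 4 and 5 of 12. The shares over protein-coding genes were taken from pairs of a gene with a listed strand and a peak on either strand. Of 999 such pairs for HepG2, 53.6% were start-side and 10.5% end-side. Of 1551 for the WT-named list, 47.6% and 16.2% were. Start-side peaks were thus about as common as elsewhere in HepG2. They were less common in the WT-named list, where no cytosolic peak was start-side. End-side peaks, which lay in P4HB, CALR, HSP90AB1 and HSPA8, made up more of the members' peaks than of all. These differences were not tested. With 500 bp in place of 1000 bp the end-side count in the WT-named list fell from 5 to 3, and the others stayed.

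HSPB1 and HSP90AA1 had no WT-named peak at all, so their position cannot be compared between lists. The cytosolic members with a WT-named peak, HSP90AB1 and HSPA8, had no start-side peak in either list, and HSPA8 had none of any kind in HepG2. The start-side summits of members lay 174 to 291 bp after the start in HepG2 and 153 to 252 bp in the WT-named list. Their medians were 196 and 166 bp, against 237.0 and 228.0 bp over all start-side pairs (quartiles 190 and 357 bp, and 179 and 328 bp). By the median, members thus lay somewhat nearer the start, a difference that was not tested. Exons were not annotated in the table used, so whether a peak lies in an exon, an intron or an untranslated region was not analysed here.

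The reads at each shared site were higher in the WT-named list. At the 8 shared member sites the ratio of WT-named to HepG2 reads ran from 1.25 at the CALR start to 3.5 at the P4HB end (interval 1.98 to 6.54), with a median of 2.12, and its interval lay above 1 at 6 sites. The exceptions were the CALR start (interval 0.667 to 2.37) and the inner P4HB site (ratio 1.38, interval 0.69 to 2.8). Each list has its own depth, so ratios are next set against those of other genes.

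By the deepest peak of each gene, the ratio was 3.29 for P4HB (56 against 17 reads) and 3.07 for HSPA5 (46 against 15). The P4HB values come from different sites, the end of the gene in the WT-named list and the start in HepG2. At the overlapping end-side peaks of P4HB the ratio was 3.5. It was 2.3 for HSP90B1 (23 against 10), 2.0 for HSP90AB1 (46 against 23) and 1.95 for CALR (39 against 20). The median over 506 protein-coding genes with a peak in both lists was 1.08 (quartiles 0.709 and 1.75). Relative to that median P4HB stood at 3.04 (interval 1.74 to 5.58) and HSPA5 at 2.83 (interval 1.55 to 5.46). By the deepest overlapping pair of peaks P4HB stood at 3.23. HSP90AB1 stood at 1.85 (interval 1.1 to 3.19), CALR at 1.8 (interval 1.02 to 3.26) and HSP90B1 at 2.12 (interval 0.972 to 5.0). P4HB exceeded 91.7% and HSPA5 90.1% of those genes, and CALR, the lowest member, 78.7%.

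This excess depended on how the lists were scaled. The windows around the peaks held 271454 reads in the WT-named list and 123635 in HepG2. Windows alike in chromosome, strand and read count were taken once. Position was not used, so overlapping windows with unlike counts were each added, and the sums are a rough scale. Relative to that ratio, P4HB stood at 1.5 and HSPA5 at 1.4, HSP90B1 at 1.05, and HSP90AB1 and CALR turned to 0.911 and 0.888. The unscaled intervals of all these members included the window-read ratio, those of P4HB (1.89 to 6.05) and HSPA5 (1.68 to 5.91) among them. No member was thus set apart from 1 under this scaling. With the reads of all peaks of a gene summed, the value relative to the median gene was 3.95 for HSP90AB1, which has 3 peaks in the WT-named list and 1 in HepG2. It was 2.01 for P4HB and 1.36 for CALR. HSPB1, HSP90AA1 and HSPA8, with a peak in 1 list, have no ratio.

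**Figure D3:**
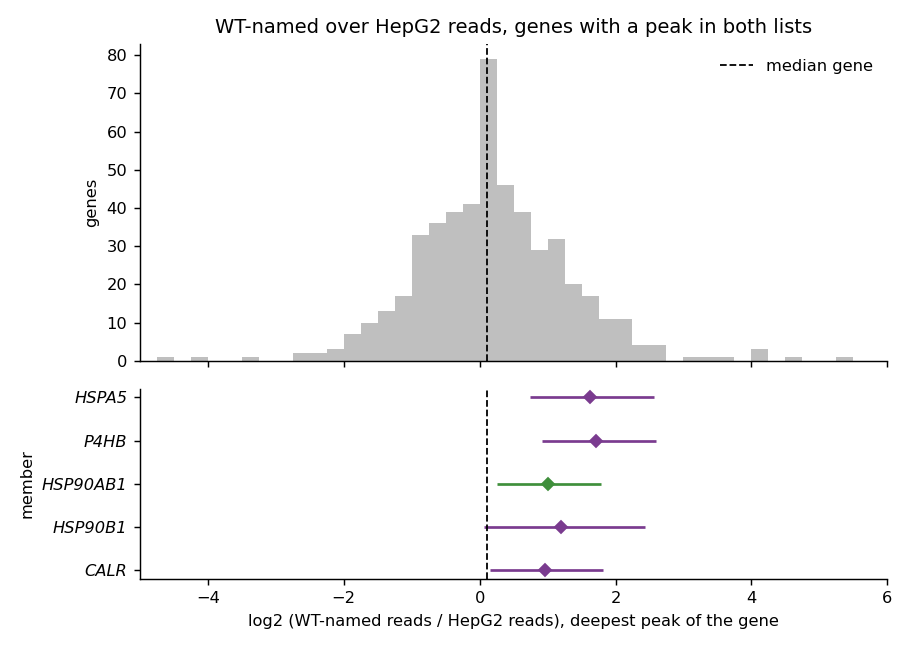
Distribution over 506 protein-coding genes of the log2 ratio of WT-named to HepG2 reads at the deepest peak (top), with the 5 members that have a peak in both lists and their 95% intervals (bottom; ER members purple, HSP90AB1 green). All 5 lie to the right of the dashed median, and the interval of HSP90B1 reaches it.

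How far a site stood out from its surroundings differed by gene. In the WT-named list the summit held 13.6 to 23.2% of the reads of the 10000 bp window at the 5 cytosolic sites and 24.7 to 50% at the 7 ER sites. These values do not overlap, but the intervals of the bordering sites do, 17.5 to 29.7% at the deepest HSP90AB1 peak and 16.2 to 35.0% at the inner P4HB peak. The 5 cytosolic sites come from 2 genes, and those of a gene share window reads. The highest was HSP90B1 with 23 of 46 reads (interval 34.9 to 65.1%), and the lowest the middle HSP90AB1 peak with 27 of 198 (interval 9.18 to 19.2%). In HepG2 the ranges overlapped, 22.5 to 48.0% at cytosolic and 17.4 to 45.5% at ER sites. The median over all peaks in protein-coding genes was 52.9% for HepG2 and 50% for the WT-named list. Every HepG2 member site lay below its median and every WT-named site at or below. Sites within 10000 bp share window reads. The window is longer than HSPB1, HSPA5, HSPA8, HSP90AB1 and CALR, and the part of gene length in these shares was not tested.

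**Figure D4:**
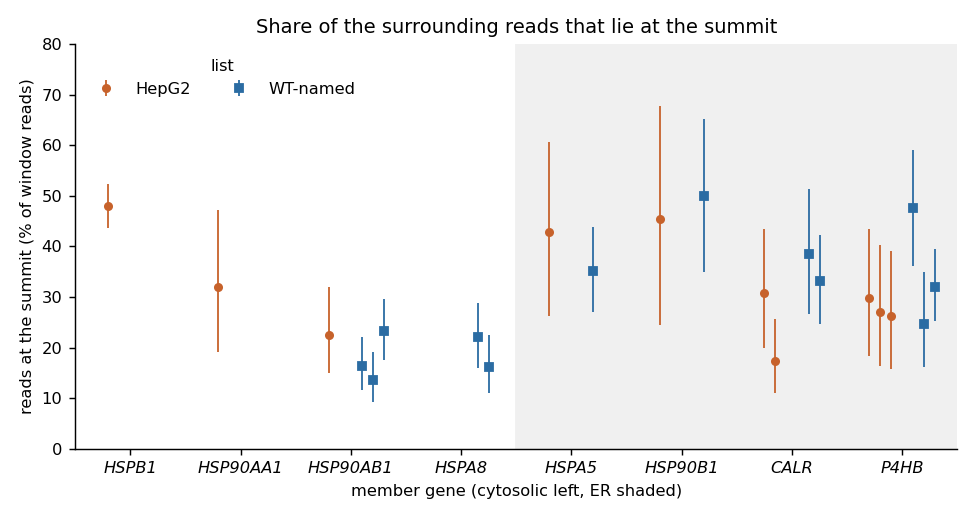
Reads at each summit as a percentage of the reads in the surrounding 10000 bp window, with 95% exact binomial intervals, for HepG2 (circles) and the WT-named list (squares), the peaks of a gene in order from its 5′ end. The WT-named peaks of HSP90AB1 and HSPA8 all lie at or below 23.2%, and the ER peaks of that list at 24.7% or above, with overlapping intervals.

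Beyond the members, 114 other genes of the chaperone network were listed by compartment. Of these, 22 carried a HepG2 peak (19.3%, interval 12.5 to 27.7%) and 27 a WT-named peak (23.7%, interval 16.2 to 32.6%), and none was in the KO-named list. Their deepest peaks held a median of 10.0 reads in HepG2 (up to 38) and 11.0 in the WT-named list (up to 30).

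Among the other ER genes, 10 of 35 carried a HepG2 peak (28.6%, interval 14.6 to 46.3%) and 12 of 35 a WT-named peak (34.3%, interval 19.1 to 52.2%), with 8 in both. PPIB, an ER prolyl isomerase, held 30 reads in the WT-named list and 7 in HepG2. KDELR1, a receptor that returns ER residents, held 22 and 16, the disulfide isomerase relative TXNDC5 19 and 9, the lectin chaperone CANX 14 and 10, and KDELR2 13 and 12. SERPINH1, the collagen chaperone, had 13 reads in HepG2 only. HERPUD1, which takes part in ER-associated degradation, had 20 reads in HepG2 on the strand opposite to the gene and 9 in the WT-named list on its own strand. The peaks of CANX, ERP29 and HERPUD1 did not overlap between the lists, so their reads do not compare the same site.

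Among the other cytosolic genes, 10 of 58 carried a HepG2 peak (17.2%, interval 8.59 to 29.4%) and 8 of 58 a WT-named peak (13.8%, interval 6.15 to 25.4%), with 4 in both. The HSP90 partners FKBP4 (14 and 15 reads, HepG2 first) and PTGES3 (10 and 16) were in both lists. So were CCT4 (10 reads in each) and CCT6A (7 and 9), subunits of the ring chaperonin that folds actin and tubulin. The ubiquitin ligase STUB1 (24 reads), the subunit CCT7 (12) and the HSP90 activator AHSA1 (10) were in HepG2 only, and CCT3 (15), the kinase co-chaperone CDC37 (12) and TCP1 (10) in the WT-named list only.

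Among mitochondrial chaperones, 1 of 11 carried a HepG2 peak, TRAP1 with 9 reads, and 5 of 11 a WT-named peak. There HSPA9 and LONP1 held 18 reads each, HSPD1 14, TRAP1 9 and CLPP 6. Of 10 stress regulators, XBP1, a transcription factor of the unfolded protein response, had 38 reads at its deepest HepG2 peak and none in the WT-named list. The stress factors ATF4 (21 reads) and HSF1 (9 reads) had peaks in the WT-named list only. A peak of few reads that is missing in the other list may lie just under its threshold, so these are not shown to be particular to a cell line.

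**Figure D5:**
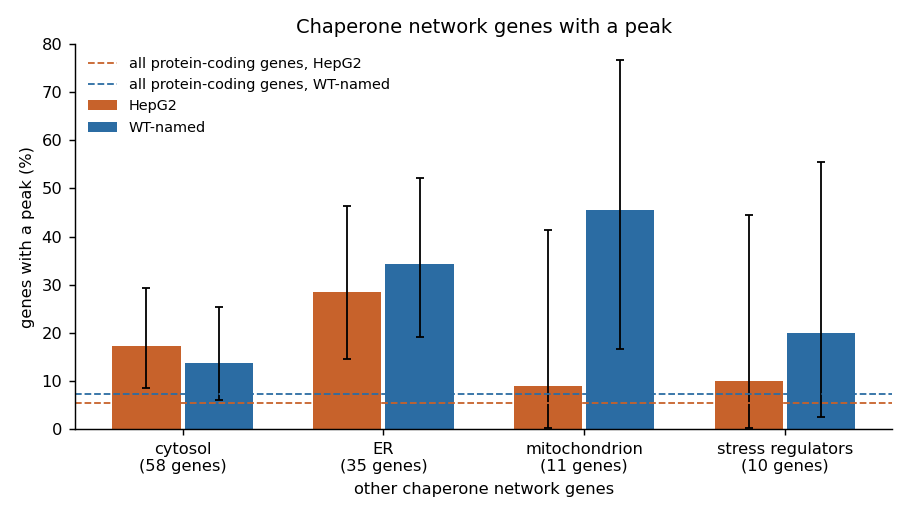
Percentage of the other chaperone network genes with a peak, by compartment, in HepG2 and the WT-named list, with 95% exact binomial intervals and dashed lines for all protein-coding genes (5.45% and 7.23%). Every bar lies above its line, from 9.09% (mitochondrial) to 28.6% (ER) in HepG2 and from 13.8% (cytosolic) to 45.5% (mitochondrial) in the WT-named list. The intervals of the smaller groups are wide. Intervals reach the line for mitochondrial genes and stress regulators in HepG2, and for cytosolic genes and stress regulators in the WT-named list.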

How the data were processed

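Peak lists were used as deposited. Per the submitters' processing notes, cutadapt, BWA and MACS2 were used with hg38 and mm10; versions, settings and pooling are not given in the sources used here. Each deposited peak name carries a strand, pos or neg. The authors deposited for each peak a fold enrichment (ratio over local background), −log10 p and −log10 q, and the summit offset.

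Reads at a summit (n) were solved on the assumption that fold = (n + 1) / (background + 1) and the Poisson upper tail beyond n gives the deposited −log10 p, with a background in steps of 0.02 (whole reads in a 10000 bp window at 200 bp extension). A unique solution was found for 1557 of 1557, 2102 of 2103 and 46 of 46 peaks. On simulated peaks, which left out the deepest, 1552 of 1552, 2096 of 2096 and 46 of 46 were recovered. They were built with the same formulas and step, so this checks the solving and not the assumption. Python 3.11.15 with scipy 1.17.1 gave Poisson and Clopper-Pearson intervals. A ratio's interval came from the binomial share of the reads.

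Genes were taken by summit from RefSeq (GRCh38.p14) without regard to strand, since the table has none; strands came from the promoter table, which lacks 17 of 122 network genes. Positions are 1-based. The members and lists were chosen with earlier results of these data known. Other network genes are named by the 4 of most reads per compartment and list, ties included. CCT6A, TCP1, CLPP, ERP29 and PDIA4 were added after their values were seen. No test between lists was possible with 1 list per group.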

Additional observations from a re-analysis of the deposited data

Results flagged for a closer look

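A further HepG2 peak at HSPB1 lay outside the rule by 5 bp. It spans 76304002 to 76304401 on chromosome 7, its summit is 5 bp past the annotated end of the gene, and it held 66 reads (interval 51.0 to 84.0), so HSPB1 carried peaks at both ends. It had no WT-named partner. Peaks also lay in pseudogene copies of the members, which near-identical reads could reach. HSPB1P2 held 31 reads in HepG2, all 31 of its window, and in the WT-named list HSP90B2P held 13, HSP90AB3P 8 and HSPA8P9 5. These peaks lie outside the member spans, and the part of mapping between copies in these peaks was not tested.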

How the results depend on the processing

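The counts of members with a peak were unchanged under −log10 q of at least 5, at least 10 reads, matched strand, any overlap with the span and a span widened by 1000 bp, as were the shared member peaks under an overlap of 50%. For the other network genes, at least 10 reads left 6 cytosolic, 5 ER and 0 mitochondrial genes in HepG2, and 6 ER, 3 mitochondrial and 1 stress regulator in the WT-named list. Matched strand left 5 cytosolic genes and 1 stress regulator in the WT-named list, largely because genes without a listed strand drop out. Scaled by window reads, the ratio relative to the reference was 1.4 for HSPA5, 1.5 for P4HB, 0.911 for HSP90AB1 and 0.888 for CALR, the last pair turning below 1. Counting error left none of these set apart from 1. Summing all peaks gave 3.95 for HSP90AB1. With 500 bp, a distance chosen after seeing the data, the WT-named end-side count was 3. Ranking by fold moved 14 of 22 ranks by over 1.5 times. No paired analysis was possible because each list is 1 column of peaks with no values per replicate.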
